A study of Capra hircus with 4 samples.

Results

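T cell nuclei chosen for few or no transcripts of 4 cytotoxic genes were examined in single-nucleus RNA-seq of goat ovaries. A nucleus was counted as one when it held at least 500 unique molecular identifiers (UMIs, each marking 1 captured transcript), at least 1 UMI for 3 or more of the 8 T cell genes CD247, CD3E, CD3D, CD2, IL7R, SKAP1, THEMIS and IKZF1, and a UMI for at most 1 of the 4 cytotoxic genes GNLY, NKG7, GZMA and CCL5. The rule found 1908 of 48332 nuclei (3.95%). They came from 4 libraries, each made from the ovary of 1 goat: 2 Du'an goats, labelled with a litter size of 1, and 2 Nubian goats, labelled with a litter size of at least 3. All 4 goats were about 3 years old and had carried a vaginal device with 300 mg of progesterone for 17 days to synchronise estrus, so no untreated ovary was compared, and breed and litter size cannot be told apart. The libraries are called Du'an 1, Du'an 2, Nubian 1 and Nubian 2, and series of 4 values below follow that order.

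T cells recognise antigen through a receptor whose signal passes through the CD3 chains and CD247 to kinases such as LCK. Mature cells usually carry either CD4, found on helper and regulatory cells, or CD8, found on cells that can kill through granules of perforin and granzymes. In the ovary, T cells are known from the stroma and from the tissue around follicles and corpora lutea.

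The T cell nuclei were unevenly spread over the goats. They numbered 84 of 9364 nuclei in Du'an 1 (0.897%, exact 95% binomial interval 0.716 to 1.11), 1238 of 10893 in Du'an 2 (11.4%, 10.8 to 12), 327 of 16988 in Nubian 1 (1.92%, 1.72 to 2.14) and 259 of 11087 in Nubian 2 (2.34%, 2.06 to 2.63). These intervals cover counting error only. Du'an 2 stood apart from the other 3 libraries, and the Du'an goats lay on both sides of the Nubian goats. The mean share was 6.13% in Du'an and 2.13% in Nubian goats, a difference of -4.00 percentage points (two-sided exact permutation test, p = 1.00, where 2 against 2 goats allow no p under 0.33). Without Du'an 2 the difference turned to 1.23 percentage points in favour of the Nubian goats. More T cells in the ovary and a better recovery of their nuclei cannot be told apart. Of all barcodes, 361 occurred in more than 1 library, 27 of the T cell nuclei carried such a barcode, and without them the difference was -4.00 percentage points.

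**Figure D1:**
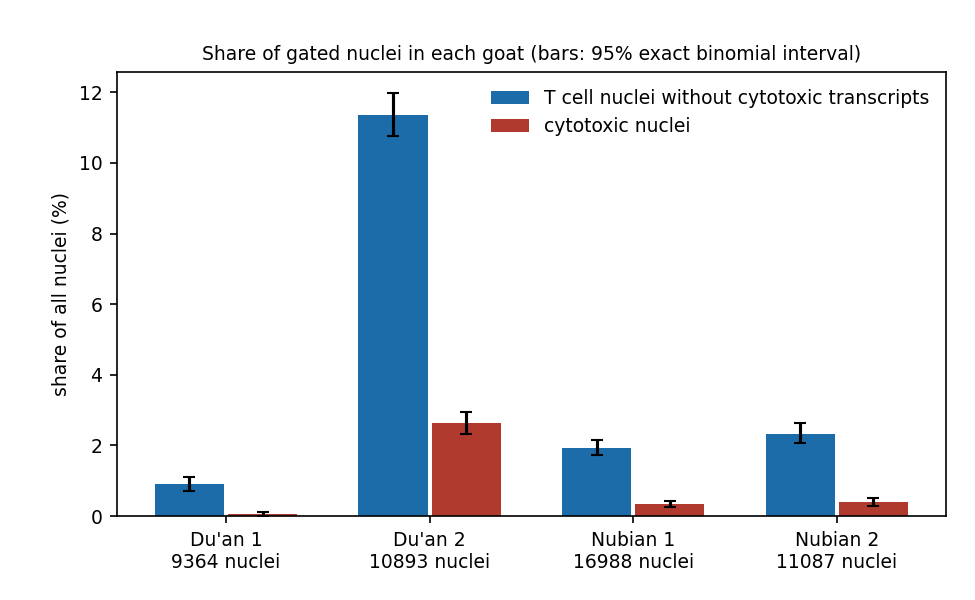
Share of all nuclei (%, y axis) that met the rule for T cell nuclei or for cytotoxic nuclei in each goat (x axis), with exact 95% binomial intervals as error bars. Du'an 2 reached 11.4% T cell nuclei while the other goats lay between 0.897% and 2.34%.

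The depth behind the values differed more between the sums than between single nuclei. The median was 3314 UMIs per T cell nucleus in Du'an 1, 2398 in Du'an 2, 2963 in Nubian 1 and 3043 in Nubian 2. Their UMIs summed to 309836, 4822613, 1514221 and 1359796, so that values from Du'an 1 carry the largest counting error. The median share of mitochondrial UMIs was 5.36%, 3.78%, 5.30% and 4.88% in T cell nuclei, against 0.699%, 1.29%, 2.08% and 1.29% over all nuclei of the same libraries, and its part in the results was not tested.

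The 8 T cell genes chose the nuclei, so their levels describe the choice. Levels are given as counts per 1000000 UMIs of the summed nuclei of a library (CPM). SKAP1, an adaptor of T cell adhesion, stood at 3805, 2020, 1928 and 1480 CPM, and THEMIS, a regulator of receptor signalling in thymic selection, at 871, 704, 555 and 256 CPM. CD3E, a chain of the receptor complex, stood at 184, 104, 177 and 206 CPM, and CD3D, another chain, at 48.4, 26.7, 70.7 and 73.5 CPM. IL7R, the receptor of a survival cytokine, stood at 503, 640, 486 and 962 CPM. Macrophage nuclei, defined by 3 or more of 8 macrophage genes and fewer than 3 of the T cell genes, held CD3D at 0 in every library but IL7R at 35.1, 47.6, 37.4 and 31.2 CPM and IKZF1, a lymphoid transcription factor, at 162, 197, 135 and 110 CPM. Genes outside the rule are given further on as the check of the label.

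The label "without cytotoxic transcripts" refers to the 4 cytotoxic genes of the rule, and most but not all of the nuclei held none of these. Other cytotoxic genes are given further on. Of the 1908 nuclei, 1342 (70.3%) held none of the 4 cytotoxic genes and 566 (29.7%) held exactly 1, a share of 10.7%, 35.1%, 21.4% and 20.1% by library. The summed level of CCL5, a chemokine released by killer cells, was 54.9, 118, 31.0 and 72.1 CPM. GNLY, a granule protein, was at 0, 33.4, 19.2 and 11.8 CPM. At the other edge of the rule, 527 nuclei held exactly 3 T cell genes and were counted, 756 held 2 and were not, and 250 with enough T cell genes were set aside because they held exactly 2 cytotoxic genes.

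Transcripts of other ovarian cells were present in the sums. Of the T cell nuclei, 858 (45%) held 3 or more markers of granulosa, macrophage, B, stromal, smooth muscle or endothelial cells. These were 19% of the T cell nuclei in Du'an 1, 45.9% in Du'an 2, 70.3% in Nubian 1 and 17.0% in Nubian 2, so Nubian 1 stood highest. All 9 granulosa markers together reached 549, 3033, 3377 and 494 CPM in T cell nuclei and 3171, 7863, 10321 and 4363 CPM in nuclei with none of the 8 T cell genes, with SERPINE2 most abundant. Leaving out the 858 nuclei brought the granulosa sum to 374, 899, 1071 and 478 CPM. The macrophage markers summed to 96.8, 726, 474 and 1002 CPM before and to 4.46, 43.0, 17.4 and 97.8 CPM after this step, and C1QC, their most abundant gene, stood at 0, 227, 137 and 293 CPM before it. Stromal markers, led by COL3A1, summed to 161, 217, 1022 and 165 CPM.

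Markers of other immune cells and of theca, muscle and vessel cells were summed in the same T cell nuclei. B cell markers reached 597, 220, 435 and 228 CPM, led by BANK1, with CD79B at 0. Plasma cell markers reached 48.4, 127, 99.7 and 136 CPM, led by PRDM1, with TNFRSF17 at 0. Mast cell markers reached 197, 36.5, 42.9 and 59.6 CPM, led by KIT, with MS4A2 and HDC at 0. The list of natural killer and innate lymphoid markers, which shares genes with activated T cells, reached 836, 707, 882 and 1742 CPM and was led by ID2. Dendritic cell markers reached 226, 153, 117 and 365 CPM, led by LAMP3. Theca markers reached 9.68, 49.4, 62.1 and 58.8 CPM, led by PTCH1, with INSL3, the defining hormone of theca cells, at 0. Smooth muscle markers, led by MYH11, summed to 158, 183, 402 and 106 CPM. Blood endothelial markers, led by PECAM1, summed to 194, 282, 413 and 113 CPM, and lymphatic endothelial markers, led by MMRN1, to 25.8, 248, 271 and 43.4 CPM. The part of all these markers in the results below was not tested beyond leaving out the nuclei with several such markers. Without those 858 nuclei the B cell markers summed to 597, 335, 421 and 281 CPM. That sum did not fall as the granulosa sum did, and whether the T cell nuclei express these genes was not tested.

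**Figure D2:**
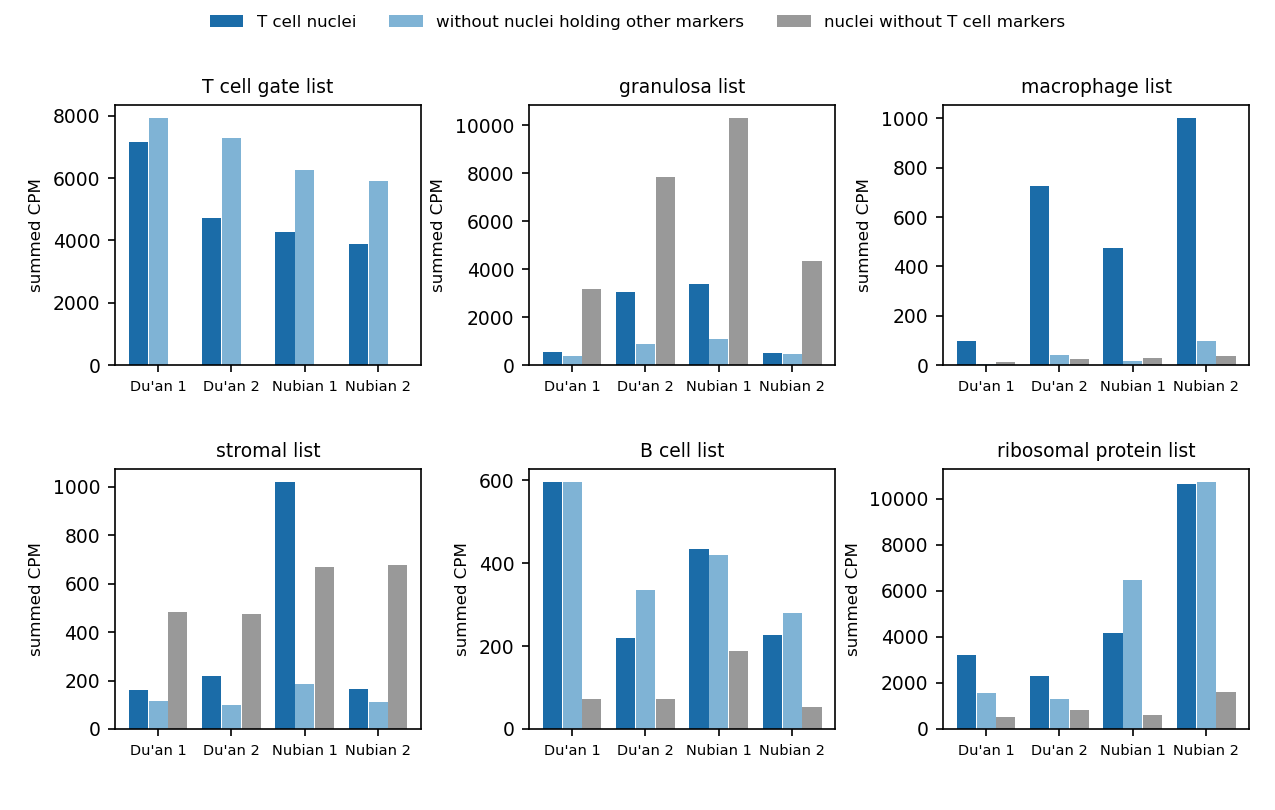
Summed CPM (y axis) of 6 marker lists in each goat (x axis), for T cell nuclei, for T cell nuclei after leaving out those with 3 or more markers of another cell type, and for nuclei without T cell genes. The granulosa sum of Nubian 1 fell from 3377 to 1071 CPM when the nuclei with other markers were left out.

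Genes of the T cell receptor pathway that the rule did not use were abundant in the chosen nuclei. The comparison groups were drawn from transcripts of the same nuclei, so differences between T cell nuclei and other nuclei are described by their size and standard error, and the counts of genes past the limit are no test of the label. CD3G, the remaining CD3 chain, stood at 142, 101, 178 and 209 CPM in T cell nuclei and at 0.202, 1.03, 0.593 and 0.529 CPM in nuclei without T cell genes. GRAP2, an adaptor that links the receptor to downstream kinases, stood at 494, 531, 292 and 271 CPM against 2.17, 4.08, 2.07 and 1.93 CPM, a log2 difference of 7.11 ± 0.32 (SE, 4 goats). The 2 groups overlapped in neither gene. Of 12477 genes fitted, 6243 (50%) passed an adjusted p under 0.05 with edgeR in this contrast, 26.4% higher and 23.7% lower in T cell nuclei. Of the 28 receptor signalling genes, 25 were higher and 0 lower, with a median log2 difference of 6.30 against -0.05 over all genes.

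Against macrophages, the other large group of leukocyte nuclei, 24 of the 28 receptor signalling genes were higher and 1 was lower, with a median log2 difference of 2.79 against 0.01 over all genes. In that contrast 4757 of 12477 genes (38.1%) passed the limit, 18% higher and 20.1% lower in T cell nuclei. Without Du'an 2, 2344 did. LCK stood at 152, 84.6, 72.6 and 92.7 CPM in T cell nuclei and at 0, 0, 1.81 and 0.203 CPM in macrophage nuclei. CD48, a lymphocyte adhesion protein, did not separate them: it stood at 378, 230, 310 and 399 CPM in T cell nuclei and at 315, 332, 282 and 447 CPM in macrophage nuclei, a log2 difference of -0.19 ± 0.28, with overlapping groups.

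Transcription factors of the T lineage differed among themselves in how far they marked these nuclei. BCL11B, which commits precursors to the lineage, stood at 955, 473, 408 and 303 CPM in T cell nuclei and at most 2.38 CPM in any library of nuclei without T cell genes. RUNX3, GATA3 and TBX21, which direct cytotoxic, helper type 2 and helper type 1 programmes, stood at log2 differences of 7.55 ± 0.44, 7.32 ± 0.63 and 7.72 ± 0.48 from the nuclei without T cell genes. TCF7 stood lower, at 45.2, 17.0, 24.4 and 28.7 CPM, with a log2 difference of 3.06 ± 0.52. LEF1, its partner in naive T cells, was at 284, 158, 252 and 218 CPM against 253, 57.2, 63.5 and 156 CPM, and the difference of 0.81 ± 0.36 did not pass the limit. RORA, a factor of type 3 and innate lymphoid cells, overlapped between the groups, with 1520, 1173, 1268 and 869 CPM against 1423, 1217, 1151 and 1272 CPM. ZBTB16, a factor of innate-like T cells, was lower in T cell nuclei, at 349, 510, 369 and 313 CPM against 477, 1197, 637 and 1122 CPM. Of the 20 lineage factors, 12 were higher and 2 lower than in nuclei without T cell genes, where 26.4% of all genes were higher and 23.7% lower. Against macrophages 16 were higher and 1 lower, where 18% of all genes were higher and 20.1% lower.

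Shares of nuclei with a UMI were compared at equal depth, after thinning each nucleus to 1000 UMIs, because granulosa nuclei were deeper. Granulosa nuclei, defined by 3 or more of 6 granulosa genes and by few T cell and macrophage genes, should lack T cell transcripts and had median depths of 6582, 5986, 3683 and 4900 UMIs. BCL11B was detected in 60%, 45.6%, 40.4% and 35.3% of thinned T cell nuclei and in at most 0.511% of thinned granulosa nuclei (unthinned T cell nuclei 81.0%, 70.8%, 68.5% and 62.2%, granulosa nuclei at most 1.80%). CD3G was detected in 12.5%, 12.9%, 18.2% and 22.5% against at most 0.104% (unthinned 32.1%, 26.2%, 38.5% and 41.7% against at most 0.785%). ICOS, a costimulatory receptor induced on activation, was detected in 17.5%, 12.2%, 18.8% and 26.1% against at most 0.0982% (unthinned 38.1%, 20.3%, 30.3% and 39.4% against at most 0.393%). These 3 genes were well above the granulosa share in every goat. LEF1 was detected in 16.2%, 13.1%, 18.5% and 23.3% of T cell nuclei against 13.0%, 3.79%, 3.95% and 8.31% of granulosa nuclei (unthinned 31.0%, 20.9%, 35.8% and 38.2% against 37.1%, 12.9%, 10.5% and 22.2%), so it was above the granulosa share in Du'an 2 and both Nubian goats but not beyond counting error in Du'an 1. ZBTB16 was detected in 20%, 24.5%, 22.9% and 27.3% of T cell nuclei against 32.5%, 63.9%, 45.7% and 59.3% of granulosa nuclei (unthinned 36.9%, 41.0%, 43.1% and 48.6% against 69.7%, 90.9%, 75.4% and 87.2%). The ZBTB16 share lay below that of granulosa nuclei in every goat, so expression in T cell nuclei is not read from it, although the level was above that of macrophage nuclei, at 20.8, 94.9, 142 and 44.2 CPM. FOXP3, the factor of regulatory T cells, was too sparse after thinning to be set apart from granulosa nuclei, with 1 thinned nucleus in Du'an 1 (1.25%) and 0% in the others against 0.174%, 0.138%, 0.135% and 0.103% of granulosa nuclei (unthinned 1.19%, 0.323%, 2.75% and 2.32% against 1.09%, 0.636%, 0.498% and 0.739%). Its summed level was 6.46, 0.829, 9.91 and 10.3 CPM in T cell nuclei, against 1.47, 0.827, 1.03 and 1.09 CPM in nuclei without T cell genes and 0, 0.236, 0.603 and 0.710 CPM in macrophage nuclei.

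**Figure D3:**
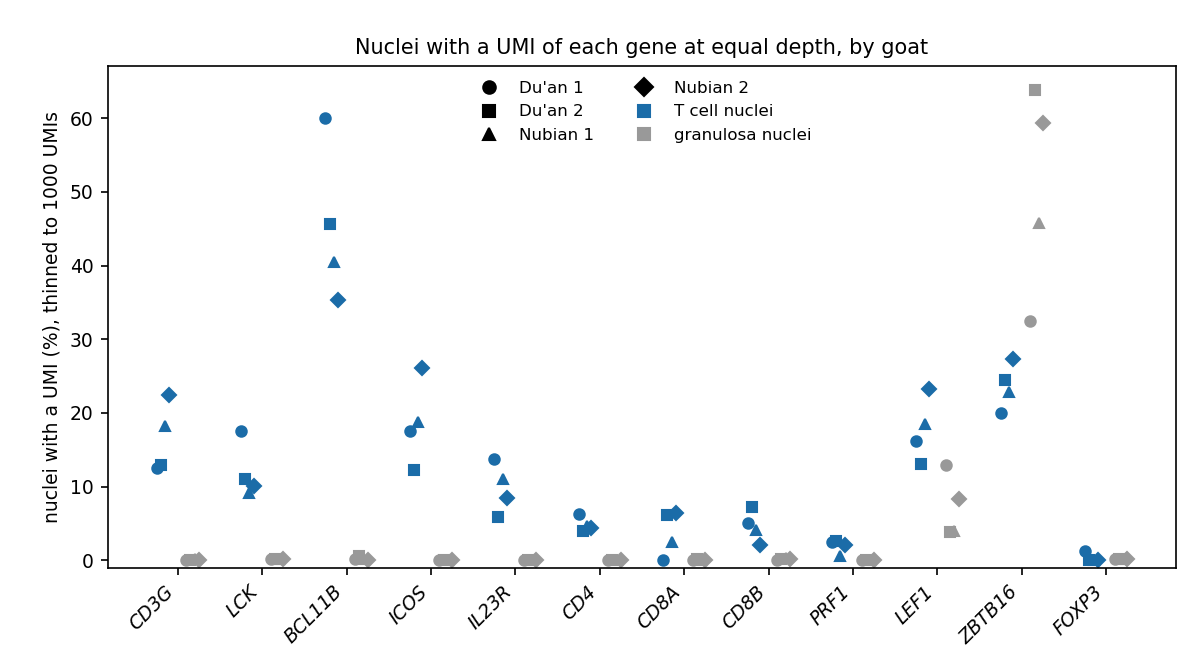
Share of nuclei with a UMI (%, y axis) for 12 genes (x axis) after thinning to 1000 UMIs, in T cell and granulosa nuclei, with 1 symbol per goat. BCL11B was found in 35.3% to 60% of T cell nuclei, while ZBTB16 was found in a larger share of granulosa than of T cell nuclei in every goat.

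Genes of helper programmes, retention and homing were also described against nuclei without T cell genes. IL23R, the receptor of a cytokine that sustains type 3 T cells, stood at 284, 72.8, 146 and 88.2 CPM against at most 0.678 CPM, and it was detected in 13.8%, 5.85%, 11% and 8.43% of thinned T cell nuclei against at most 0.0937% of granulosa nuclei (unthinned 22.6%, 10.1%, 17.1% and 15.4% against at most 0.338%). CCR6, the chemokine receptor found on type 3 cells, stood at 19.4, 6.43, 9.25 and 8.09 CPM. IL17A, an effector cytokine of type 3 cells, had no UMI in any T cell nucleus. By library, counts of 0 leave room for a UMI in up to 3.57%, 0.242%, 0.917% and 1.16% of the nuclei, which does not limit the share of cells that express it. Of the 10 fitted genes of the type 3 list, 6 were higher and 2 lower, beside 26.4% higher and 23.7% lower among all genes, with a median log2 difference of 1.86 against -0.05 over all genes.

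All 8 type 1 genes were higher, with IL12RB2, a receptor chain of interleukin 12, at 213, 132, 87.8 and 61.8 CPM against at most 0.750 CPM, and STAT4, which carries its signal, at 391, 176, 168 and 140 CPM against at most 3.12 CPM. All 11 fitted tissue residency genes were higher: CD69, which holds T cells in tissue, stood at 113, 160, 95.8 and 94.1 CPM against at most 0.801 CPM, and ITGA4, the alpha4 integrin chain, at 862, 670, 469 and 375 CPM against 4.74, 10.4, 6.51 and 3.76 CPM. CXCR6, a homing receptor, stood at 9.68, 6.84, 23.8 and 47.8 CPM against at most 0.0933 CPM. CCR7, the receptor that guides T cells to lymph nodes, stayed at 0, 1.24, 2.64 and 8.09 CPM and was too sparse to be fitted. Of the 10 fitted genes of the naive and recirculating list, 3 were higher and 1 was lower, near the 26.4% higher and 23.7% lower among all genes, with a median log2 difference of 0.48. Against the cytotoxic nuclei defined further on, 0 of 8 type 1 and 0 of 11 tissue residency genes passed the limit. There 0.128% of all genes passed, and the median log2 differences were -0.41 and -0.26, against 0.11 over all genes. Against macrophages 8 type 1 genes were higher and 0 lower, and 7 residency genes were higher and 2 lower. In that contrast 18% of all genes were higher and 20.1% lower.

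Antigen receptor constant regions have no symbols in the goat annotation and are given by locus tag with the gene type and neighbours in RefSeq (assembly ARS1.2). They were picked by gene type after values had been seen, so no test is given, and the gene type does not tell T cell receptor from immunoglobulin genes. The constant region LOC102182508, between SALL2 and DAD1, stood at 1478, 851, 754 and 828 CPM in T cell nuclei and at 5.63, 7.88, 6.07 and 5.88 CPM in nuclei without T cell genes. LOC102179835, between EPHB6 and PRSS2, stood at 323, 191, 372 and 613 CPM against at most 1.55 CPM. LOC102168416, between LSM8 and AMPH, stood at 58.1, 67.0, 44.2 and 30.2 CPM, and LOC102179160, between CTTNBP2 and STARD3NL, at 12.9, 64.9, 21.1 and 39.7 CPM. LOC102185461, a constant region next to JAG2, overlapped between the groups, at 3.23, 10.6, 23.8 and 10.3 CPM against 1.53, 4.94, 28.7 and 12.4 CPM. Reads from near-identical constant regions may be shared among them, so single values are uncertain.

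Cytotoxic nuclei were defined by the same T cell genes but by 2 or more of the 4 cytotoxic genes. They numbered 4, 286, 56 and 43, and Du'an 1 was left out of their sums because a sum needed at least 10 nuclei. Values are given below for the other 3 goats, in the order Du'an 2, Nubian 1 and Nubian 2. The contrast was taken from 1 fit over all 4 classes, in which the other classes of Du'an 1 remained and shared in the estimate of the spread. In that fit 16 of 12484 genes (0.128%) passed the limit in edgeR, 2 higher (0.016%) and 14 lower (0.112%) in T cell nuclei. GZMM, a granzyme outside the rule, stood at 12.4, 7.92 and 8.82 CPM in T cell nuclei and at 76.7, 140 and 155 CPM in cytotoxic nuclei, a log2 difference of -3.63 ± 0.50 (SE, 3 goats). PRF1, which encodes perforin, stood at 17.4, 9.91 and 16.9 CPM against 151, 107 and 209 CPM, a log2 difference of -3.41 ± 0.53. CX3CR1, a chemokine receptor of circulating killer cells, stood at 10.2, 5.28 and 8.09 CPM against 62.2, 128 and 35.5 CPM, a log2 difference of -2.89 ± 0.52. In each of these genes every T cell value lay below every cytotoxic value. MCF2L2, a gene for a guanine nucleotide exchange factor, was higher in T cell nuclei, at 36.1, 43.6 and 62.5 CPM against 10.8, 6.09 and 4.44 CPM, a log2 difference of 2.51 ± 0.43.

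Of the 18 genes in the list of cytotoxic genes outside the rule, 3 were lower and 0 higher, with a median log2 difference of -1.44 against 0.11 over all genes. The third was CTSW, a lysosomal protease of killer cells, named after its values were seen, at 59.5, 126 and 232 CPM against 361, 974 and 3913 CPM. Both coreceptor directions missed the limit: CD8A stood at 49.1, 17.2 and 28.7 CPM against 201, 192 and 195 CPM (log2 difference -2.75 ± 0.50), and CD4 at 29.2, 40.3 and 30.9 CPM against 1.80, 6.09 and 4.44 CPM (3.40 ± 0.74), although their values did not overlap. IL23R, at 72.8, 146 and 88.2 CPM against 21.6, 6.09 and 8.87 CPM (3.02 ± 0.68), and LEF1, at 158, 252 and 218 CPM against 49.6, 36.5 and 93.2 CPM (1.69 ± 0.44), also missed it without overlap. CD4, CD8A, IL23R and LEF1 passed in the DESeq2 fit, where 203 genes did (1.97%). LOC102173834, a protein-coding gene between LOXL1 and STXBP6, stood at 11.6, 73.3 and 97.1 CPM against 134, 1136 and 1153 CPM, and the constant region LOC102191761, between LSM8 and AMPH, at 58.3, 36.3 and 18.4 CPM against 149, 463 and 231 CPM. The number of genes past the limit was 38 when all classes of Du'an 1 were also taken out of the fit, which leaves the same 3 pairs of sums, 3 without Du'an 2 and 0 without Nubian 2, and it was 2 without goat as a block. It was 25 (0.2%) when T cell nuclei with markers of another cell type were left out, 14 higher and 11 lower, and 686 under the study's limits on UMIs, genes and mitochondrial share, without its doublet removal. Receptor signalling genes showed 0 of 28 past the limit, beside 0.128% of all genes, with a median log2 difference of 0.23 against 0.11 over all genes. The T cell nuclei were not free of cytotoxic transcripts outside the rule. Compared with nuclei without T cell genes, 16 of the 18 cytotoxic genes outside the rule were higher and 1 lower. There 26.4% of all genes were higher and 23.7% lower. Against macrophages 12 were higher and 4 lower, where 18% of all genes were higher and 20.1% lower.

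**Figure D4:**
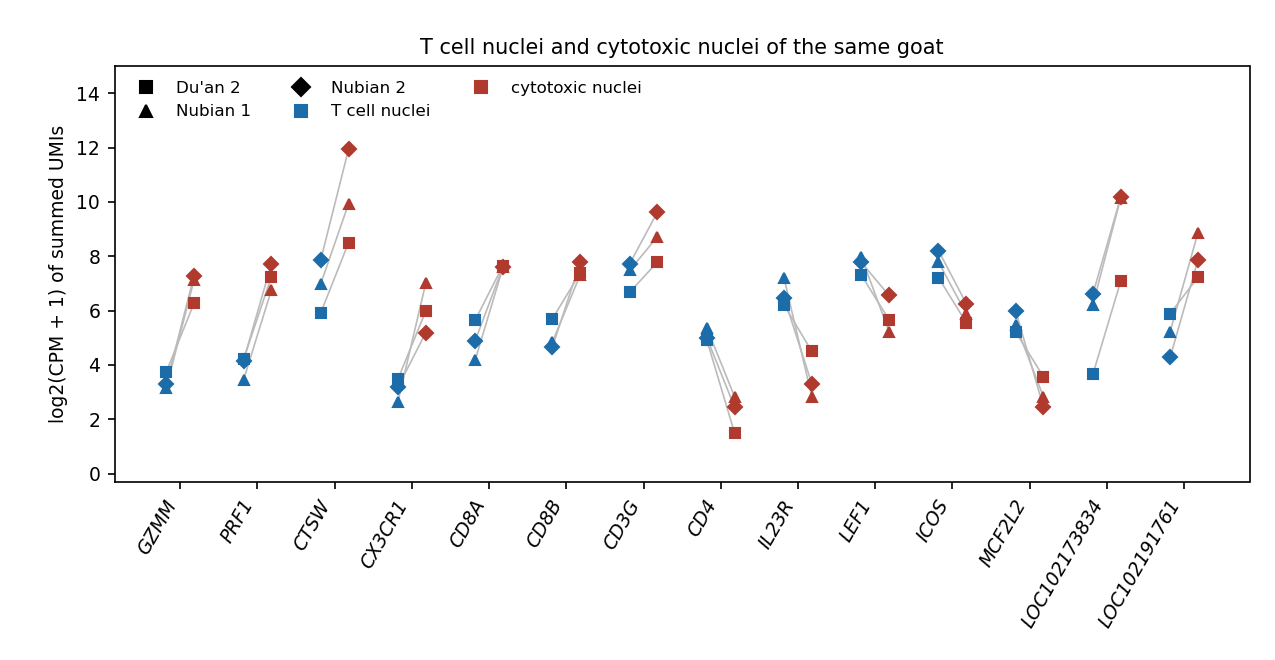
Level of 14 genes as log2(CPM + 1) (y axis) in T cell and cytotoxic nuclei, with 1 symbol per goat and a line joining both classes of a goat. GZMM, PRF1 and CTSW lay lower and CD4, IL23R and MCF2L2 higher in the T cell nuclei of each of the 3 goats.

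Among the T cell nuclei, a UMI of CD4 was found in 179 (9.38%) and a UMI of CD8A or CD8B in 422 (22.1%), both in 3, and neither in 1310. By library the CD4 share was 14.3%, 7.75%, 13.5% and 10.4%, and the CD8 share was 20.2%, 25.7%, 15% and 14.7%. Without thinning, the share with either of the 2 CD8 genes exceeded the share with CD4 in every goat, with the largest gap in Du'an 2. Only there did the exact 95% binomial intervals separate, at 23.3 to 28.2 for CD8 and 6.33 to 9.39 for CD4. They overlapped in Du'an 1, Nubian 1 and Nubian 2. In these the CD8 intervals began at 12.3%, 11.3% and 10.6% and the CD4 intervals ended at 23.6%, 17.6% and 14.8%. At equal depth CD8A alone lay below CD4 in Du'an 1 and Nubian 1 and above it in Du'an 2 and Nubian 2. After thinning, CD4 was found in 6.25%, 4.01%, 4.70% and 4.42% of T cell nuclei and in 0% of granulosa nuclei, while CD8A was found in 0%, 6.10%, 2.51% and 6.43% against at most 0.118% (unthinned, CD4 in at most 0.0564% and CD8A in at most 0.542% of granulosa nuclei). CD8B, whose granulosa share is not printed in the text, differed from nuclei without T cell genes by log2 differences of 3.85 to 4.92 over all fits. For CD8A they were 5.71 to 6.77. The part of background in the share with either CD8 gene was not tested. Most nuclei could not be placed on either side at this depth.

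Nuclei with CD4 and none of CD8A or CD8B (12, 96, 41 and 27) were then compared with nuclei with CD8A or CD8B and no CD4 (17, 318, 46 and 38), with the UMIs summed per goat and goat as a block. In edgeR, 28 of 3266 genes tested (0.857%) passed, 13 higher (0.398%) and 15 lower (0.459%) in CD4 nuclei. LEF1 stood at 792, 528, 428 and 353 CPM in CD4 nuclei and at 107, 63.2, 140 and 112 CPM in CD8 nuclei, a log2 difference of 2.38 ± 0.31 (SE, 4 goats, edgeR adjusted p = 0.0035). PLCL1, a gene for a phospholipase C-like protein, stood at 1283, 242, 836 and 784 CPM against 53.3, 41.0, 105 and 212 CPM (2.81 ± 0.32, adjusted p = 0.0019). SLAMF1, a costimulatory receptor, stood at 170, 154, 129 and 131 CPM against 17.8, 14.3, 40.7 and 18.7 CPM (2.86 ± 0.41, adjusted p = 0.0082). These 3 genes were higher in CD4 nuclei without overlap. CYSLTR1, a leukotriene receptor, was also higher, with a log2 difference of 3.30 ± 0.54 (adjusted p = 0.015).

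On the CD8 side, CD96, a receptor shared by T and natural killer cells, stood at 0, 18, 0 and 13.1 CPM in CD4 nuclei and at 480, 111, 145 and 100 CPM in CD8 nuclei (log2 difference -3.69 ± 0.59, adjusted p = 0.015). CTSW stood at 37.7, 12.9, 16.2 and 176 CPM against 71.0, 93.5, 576 and 887 CPM (-2.97 ± 0.46, adjusted p = 0.014), with overlap between goats but the same direction within each. ZEB2, a factor of effector CD8 cells, stood at 94.3, 618, 460 and 399 CPM against 1048, 2096, 1553 and 619 CPM (-1.63 ± 0.33, adjusted p = 0.042). PTPN22, a phosphatase that damps receptor signalling, and SH2D1A, an adaptor of SLAM receptors, were lower in CD4 nuclei by log2 differences of -1.87 ± 0.33 and -1.92 ± 0.37. The largest difference with a locus tag was LOC108636059, a protein-coding gene between MAGOHB and GABARAPL1, at 18.9, 25.7, 24.2 and 0 CPM against 1066, 649, 553 and 431 CPM (-4.93 ± 0.38, adjusted p = 6.1e-05). Its neighbour LOC102183941 differed in the same direction (-2.62 ± 0.31, adjusted p = 0.0020).

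Of 24 receptor signalling genes tested, 0 were higher and 2 lower in CD4 nuclei, beside 0.398% higher and 0.459% lower among all genes, with a median log2 difference of -0.27 against 0.05 over all genes. LCK, at 94.3, 74.6, 109 and 176 CPM against 231, 102, 87.2 and 144 CPM, did not pass (-0.11 ± 0.33, adjusted p = 0.98), nor did IL23R (-0.07 ± 0.46, adjusted p = 0.99). FOXP3, too sparse to be tested, stood at 37.7, 0, 28.3 and 13.1 CPM in CD4 nuclei and was at 0 in CD8 nuclei of every goat. The CD4 sums came from only 12, 96, 41 and 27 nuclei, so no difference is read from these values. The count of 28 became 12 without Du'an 1 and 13 without Nubian 1, and 1 among nuclei that held none of the 4 cytotoxic genes or when goat was not a block. DESeq2 called 34 (1.18%). Over all 15 fits the log2 difference ran from 1.93 to 2.82 for LEF1, 2.49 to 3.22 for PLCL1 and -6.01 to -4.72 for LOC108636059. Their highest adjusted p over the edgeR and DESeq2 fits was 0.091, 0.49 and 0.021, so of these only LOC108636059 passed in every fit. CTSW passed in 13 of 14 fits, CD96 in 12 of 15, ZEB2 in 9 of 15 and PTPN22 in 8 of 15.

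**Figure D5:**
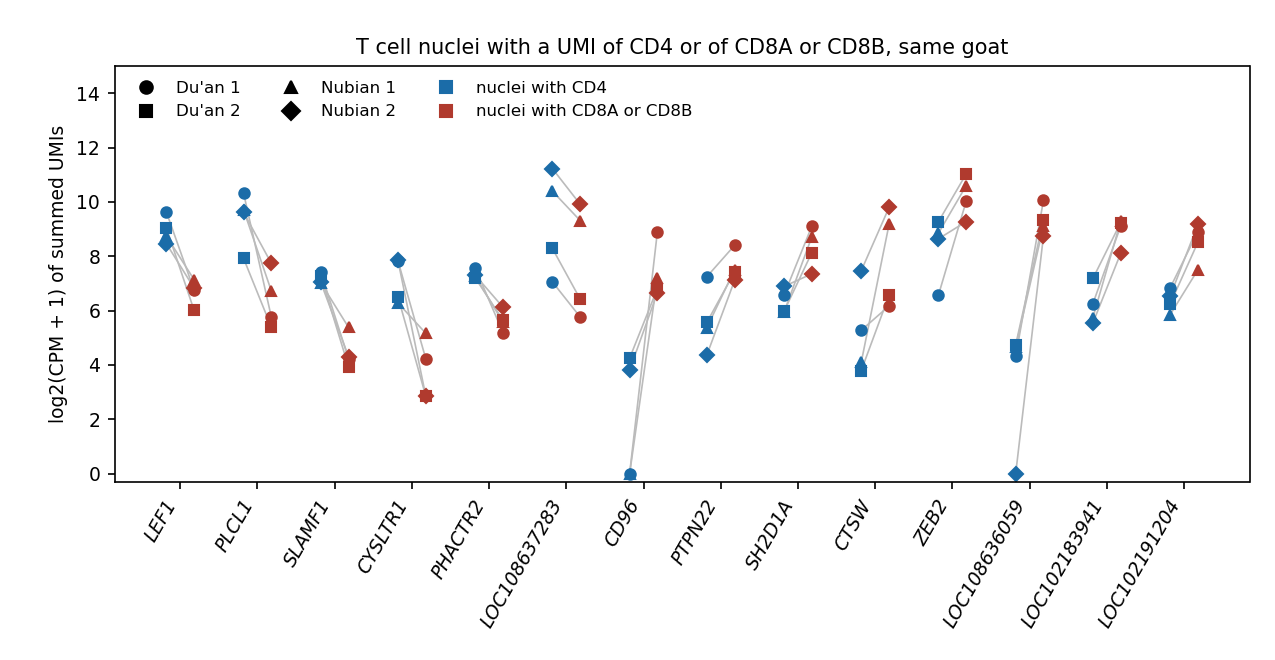
Level of 14 genes as log2(CPM + 1) (y axis) in T cell nuclei with CD4 or with CD8A or CD8B, with 1 symbol per goat and a line joining both groups of a goat. LEF1, PLCL1 and SLAMF1 were higher with CD4, and CD96 and LOC108636059 were higher with CD8, in each of the 4 goats.

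The breeds were compared on the T cell sums of the 4 goats, 2 against 2. No gene of 10613 tested passed the limit in edgeR (0.0%, smallest adjusted p 0.835), with 395 at an unadjusted p under 0.05. DESeq2 called 1 gene (0.00942%) with 467 at an unadjusted p under 0.05. It was LOC102188452, a protein-coding gene between ZNF311 and GABBR1, named after its values were seen. It stood at 48.4 and 52.0 CPM in the Du'an and 320 and 396 CPM in the Nubian goats. HMGB2, a chromatin protein of dividing and activated cells, named after its values were seen, stood at 64.6 and 64.7 CPM in Du'an and at 192 and 251 CPM in Nubian goats, a log2 difference of 1.81 ± 0.38 (edgeR adjusted p = 0.84). CTLA4, an inhibitory receptor, stood at 16.1 and 25.9 CPM against 68.0 and 79.4 CPM (1.76 ± 0.46), and IL2RA, the alpha chain of the interleukin 2 receptor, at 35.5 and 16.8 CPM against 63.4 and 80.9 CPM (1.62 ± 0.55). The breeds did not overlap in HMGB2, CTLA4 or IL2RA, and none of the 3 passed in this fit. CD3G, LCK, BCL11B, CD4 and CD8A did not pass either, with log2 differences between -1.01 and 0.71.

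Leaving out the 858 T cell nuclei with markers of another cell type changed the breed comparison. Of 6733 genes tested, 229 were then higher (3.40%) and 1 lower in Nubian goats, on sums of 68, 670, 97 and 215 nuclei. HMGB2 stood at 62.4 and 47.1 CPM in Du'an and at 344 and 346 CPM in Nubian goats (log2 difference 2.82 ± 0.27, edgeR adjusted p = 0.025, range over all fits 0.025 to 1.00). IL2RA stood at 31.2 and 23.9 CPM against 86.9 and 145 CPM (2.29 ± 0.45, adjusted p = 0.045, range over all fits 0.045 to 1.00), and CTLA4 at 22.3 and 13.1 CPM against 31.3 and 115 CPM did not pass (2.45 ± 0.72, adjusted p = 0.13, range 0.13 to 1.00). TMSB10, an actin-binding peptide, stood at 419 and 535 CPM against 3290 and 4711 CPM (3.17 ± 0.36, adjusted p = 0.025, range 0.025 to 1.00). RPS3, a ribosomal protein gene, stood at 80.2 and 99.0 CPM against 480 and 836 CPM (2.97 ± 0.38, adjusted p = 0.025, range 0.025 to 1.00). HMGB2, TMSB10 and RPS3 were named after their values were seen. Of the 14 ribosomal protein genes tested there, 8 were higher, with a median log2 difference of 2.30, while among all T cell nuclei 0 of 16 passed with a median of 1.33 against 0.08 over all genes. Summed over the list, ribosomal protein genes reached 3205, 2300, 4158 and 10632 CPM in all T cell nuclei and 519, 816, 615 and 1621 CPM in nuclei without T cell genes, so Nubian 2 was highest in both. With the 858 nuclei left out the sum over the list was 1583, 1293, 6450 and 10746 CPM in T cell nuclei. Both Nubian goats were above both Du'an goats before and after this step. Without the filter on low counts, 134 of 18407 genes were higher (0.728%) and 20 lower in Nubian goats. The part of ribosomal transcripts and of RNA quality in these differences was not tested.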

How the data were processed

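Nuclei of 4 goat ovaries were profiled with 10x Genomics chemistry, 1 library per goat. The authors deposited raw UMI counts per gene and nucleus (28944 genes), which the submitters' processing notes credit to Cell Ranger 5.0.0, while the matrix headers name 3.1.0. The deposited counts were used unchanged. Libraries summed to 40573246, 60566681, 71613892 and 52783453 UMIs. Separate deposited tables hold the authors' own granulosa comparisons and were not used.

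UMIs were summed per goat and class, and tested with edgeR 4.0.16 (R 4.3.3; TMM, filterByExpr, quasi-likelihood, Benjamini-Hochberg over all genes tested, limit 0.05), with goat as a block between classes and no block between breeds. Python 3.11.15 and numpy 2.4.6 served for counting and thinning. Scripts were tested on simulated data. Alternatives were DESeq2 1.42.0, RLE factors, no filter on low counts, each goat left out, stricter rules, the study's filter on UMIs, genes and mitochondrial share (44872 nuclei, 1816 of them T cell nuclei) and leaving out nuclei with markers of another type. Doublets were not called here, so this step leaves out the study's doublet removal with Scrublet and does not give the same nuclei.

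The members and lists were chosen with earlier results of these data known. Genes were named by rule: the genes of the nucleus rule, up to 2 genes per list and direction past the limit with every goat agreeing, up to 5 per direction outside the lists with at least 20 CPM, and a set of T cell genes; others are marked. The labels do not say that replicate numbers pair goats, so the breeds were compared without a block. The breed p-values measure the spread between goats of 1 library each. Goat was a block between classes and between CD4 and CD8 nuclei. Those p-values measure the spread that is left after the levels of the goats are taken out. No sequences are given. Some genes of the lists are not reported here.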

Additional observations from a re-analysis of the deposited data

Results flagged for a closer look

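LCK, the kinase next to the T cell receptor, was the named gene whose CD4 and CD8 nuclei differed in opposite directions between the breeds. It stood at 94.3 and 74.6 CPM in CD4 nuclei against 231 and 102 CPM in CD8 nuclei of the Du'an goats, and at 109 and 176 CPM against 87.2 and 144 CPM in the Nubian goats. Both Du'an goats were lower and both Nubian goats higher in CD4 nuclei, and the log2(CPM + 1) differences of the breeds were 1.17 apart (Nubian minus Du'an). This difference between breeds was not tested, and the CD4 sums came from only 12, 96, 41 and 27 nuclei. With 2 goats per breed no single goat could be compared with the rest of its group.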

How the results depend on the processing

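The difference in share between the breeds kept its direction under each change of the rule, the filter or the depth, from -4.41 to -2.18 percentage points, and ran from -9.23 to 1.23 when 1 goat was left out, reversing without Du'an 2. For T cell against cytotoxic nuclei the 16 genes became 88 without the low-count filter, 203 with DESeq2 and 2 without goat as a block. They became 75 with none of the 4 cytotoxic genes, 25 without nuclei holding other markers and 40 without shared barcodes. Under the study's filter without its doublet step they became 686. They ran from 0 to 38 with 1 goat left out of the whole fit. The 38 came without Du'an 1, which entered only through its other classes. For macrophages the 4757 became 2541 without goat as a block and 2344 to 4932 with 1 goat left out, and RPLP1 reversed to 0.11 under the study's filter. Against nuclei without T cell genes the count stayed between 4656 and 6776, and between 4761 and 5863 with 1 goat left out. For CD4 against CD8 nuclei the 28 became 158 without the low-count filter and 1 without goat as a block. They became 1 with none of the 4 cytotoxic genes, 51 under the study's filter and 12 to 23 with 1 goat left out. For the breeds the 0 became 154 without the low-count filter, 1 with DESeq2 and 230 without nuclei holding other markers, and was 0 with 1 goat left out, where 1 against 2 goats says nothing about stability. Same-numbered goats deviated with r = -0.108 over 10847 genes, and neither the replicate block nor the crossed replicate block, chosen after seeing the data, gave a call (0 each). Of 2889 refits of 206 named gene results, 2649 kept direction and call, 163 lost and 35 gained the call in the same direction, and 42 changed sign, RPLP1 after a call and the rest in genes that passed in neither fit. Their log2 differences follow. In T cell against cytotoxic nuclei GATA3 was -0.10 with DESeq2, -0.050 with RLE normalization and -0.015 without goat as a block. With 1 goat left out there, GATA3 ran from -0.30 to 0.45, CTLA4 from -0.052 to 1.16 and TCF7 from -0.15 to 1.49. Against nuclei without T cell genes RORA was 0.030 under the study's filter and S1PR1 0.071 without nuclei holding other markers. In CD4 against CD8 nuclei, with none of the 4 cytotoxic genes, CD3G was -0.14 and RORA -0.25, IL23R was 0.12 without nuclei holding other markers and 0.053 under the study's filter, and with 1 goat left out IL23R ran from -0.80 to 0.31, LCK from -0.35 to 0.041 and RORA from -0.29 to 0.33. Between breeds, without nuclei holding other markers, CD4 was 0.29, ITGAE 0.63, LCK 0.012 and TCF7 0.65, and under the study's filter CD4 was 0.15, ITGAE 0.12 and TCF7 0.34. There PRF1 was -0.027 without the low-count filter and -0.023 with the crossed replicate block, RORA was 0.013 and TCF7 0.10 with none of the 4 cytotoxic genes, and TCF7 was 0.0090 with the replicate block, 0.21 with at least 4 of the 8 T cell markers and 0.11 without shared barcodes. With 1 goat left out the breed difference ran from -0.73 to 0.29 for CD4, -1.22 to 0.24 for CD8A, -1.32 to 0.68 for IL23R, -1.09 to 0.30 for ITGAE, -0.30 to 0.59 for LEF1, -0.57 to 1.04 for PRF1 and -0.78 to 0.67 for TCF7. The causes were not tested. Du'an 1, with 84 nuclei, limits depth most.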

Other observations

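Levels of steroid hormone receptors were also compared. No shares of nuclei at equal depth are given for them, so expression in T cells is not read from these levels. NR3C1, the glucocorticoid receptor, stood at 994, 503, 545 and 474 CPM in Du'an 1, Du'an 2, Nubian 1 and Nubian 2, against 282, 297, 245 and 241 CPM in nuclei without T cell genes and 231, 281, 310 and 121 CPM in macrophage nuclei, with no overlap between the T cell nuclei and either group. ESR1, the estrogen receptor alpha, stood at 471, 317, 322 and 244 CPM, against 84.4, 135, 147 and 33.8 CPM in macrophages and 398, 404, 466 and 374 CPM in nuclei without T cell genes. It was above macrophages without overlap but overlapped the nuclei without T cell genes. ESR2, the estrogen receptor beta, was lower than in nuclei without T cell genes, by a log2 difference of -2.53 ± 0.51. Of the 8 receptors fitted, 2 were higher and 4 lower than in nuclei without T cell genes, where 50% of all genes passed. Against macrophages 3 were higher and 1 lower, where 18% of all genes were higher and 20.1% lower. The lower one was VDR, with a log2 difference from -2.30 to -1.45 over all fits.

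Of 15 interferon response genes, 13 were higher and 0 lower than in nuclei without T cell genes, where 26.4% of all genes were higher and 23.7% lower. Against macrophages 2 were higher and 3 lower, close to the 18% higher and 20.1% lower among all genes. Of 14 cell cycle genes, 1 was higher and 0 lower than in nuclei without T cell genes. The classes were drawn from transcripts of the same nuclei, so these counts describe them and test nothing.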
